A study of Equus caballus with 6 samples.

Results

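The 38 genes described here encode cytokines, chemokines, adhesion molecules, inflammatory enzymes and the transcription factors that drive them, a set that glucocorticoids usually repress. A member was read by every spot whose platform annotation gave exactly 1 of the 38 symbols, which found 41 of 53423 gene probes and 34 of 18278 annotated genes. IL1B, IL1RN and TLR2 had only probes annotated to a second gene as well, and CSF2 had none in the gene table, so these 4 are named without values. The samples were testicular parenchyma of 6 adult stallions, 1 array each. After 10 days in the clinic, 3 stallions had been given dexamethasone intravenously at 0.1 mg/kg and 3 a matching volume of saline, and all testes were taken 12 h after the injection. Breed and age are not given in the labels. Dexamethasone is a synthetic ligand of the glucocorticoid receptor. The arrays were 1-colour CodeLink arrays with probes for human transcripts, so each value also depends on how well a human probe binds its horse counterpart.

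In the classical pathway, interleukin 1, TNF and microbial products act through receptors such as TLR4 and the adaptor MYD88 to release NF-kB dimers, which include NFKB1, NFKB2, REL and RELA, into the nucleus. These dimers switch on chemokines, endothelial adhesion molecules, inducible enzymes such as PTGS2 and NOS2, and metalloproteinases. The ligand-bound glucocorticoid receptor is known to hold back this transcription and to raise inhibitors of it. In the testis, interleukin 1 alpha is known as a product of Sertoli cells, and interleukin 6, TNF and LIF are known to be made by testicular cells in the absence of infection.

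About 6 in 10 of the member probes gave a signal in stallion testis, in treated and saline animals alike. A spot counted as above background when the scanner file did not flag it as near background, which the files mark where the signal strength, spot mean over the spot's noise level, is at or below 1. Of the 41 member probes, 20 were above background on all 6 arrays and 13 on none. At least 3 arrays were above background for 61.0% of member probes, beside 51.7% of all 23472 probes with 1 symbol. The number of member probes above background per stallion was 25, 23 and 23 in the controls and 24, 25 and 24 after dexamethasone, so the groups overlapped.

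By gene, 19 of the 34 members were above background on all 6 arrays with their best probe. They were the cytokines IL1A, IL6 and LIF, the chemokine CCL5, the growth factors CSF3 and TGFB1, and the enzymes PTGS1, PTGS2 and NOS2. The adhesion molecules ICAM1, VCAM1, SELE and SELP, the metalloproteinases MMP3 and MMP9, and TLR4, MYD88, REL and STAT3 made up the rest. A further 5, TNF, CXCL3, CXCL12, IL18 and NFKB2, reached 3 to 5 arrays. TNF and CXCL3 missed the sixth only because a control spot was unusable.

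The neutrophil attractant CXCL8, the interferon-induced chemokine CXCL10, the macrophage growth factor CSF1, the collagenases MMP1 and MMP13, the NF-kB subunit RELA and the interferon regulatory factor IRF1 were above background on 0 arrays. The monocyte attractant CCL2 and the neutrophil attractant CXCL2 were above background on 1 array, that of control replicate 1 for both, and NFKB1 on 2 arrays, 1 in each group. On the authors' scale, which divides the background-subtracted intensity by 1 constant per array so that the array median lies near 1, the CXCL8 probe read 0.36, 0.54 and 0.84 in the controls and 0.64, 1.13 and 0.44 after dexamethasone. All 13 probes above background on no array lay between -0.13 and 1.13 on that scale, beside 1.33 to 74.8 for the 20 probes above background on all 6. These low values are near the array's typical background and do not show that the horse transcript was low.

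**Figure D1:**
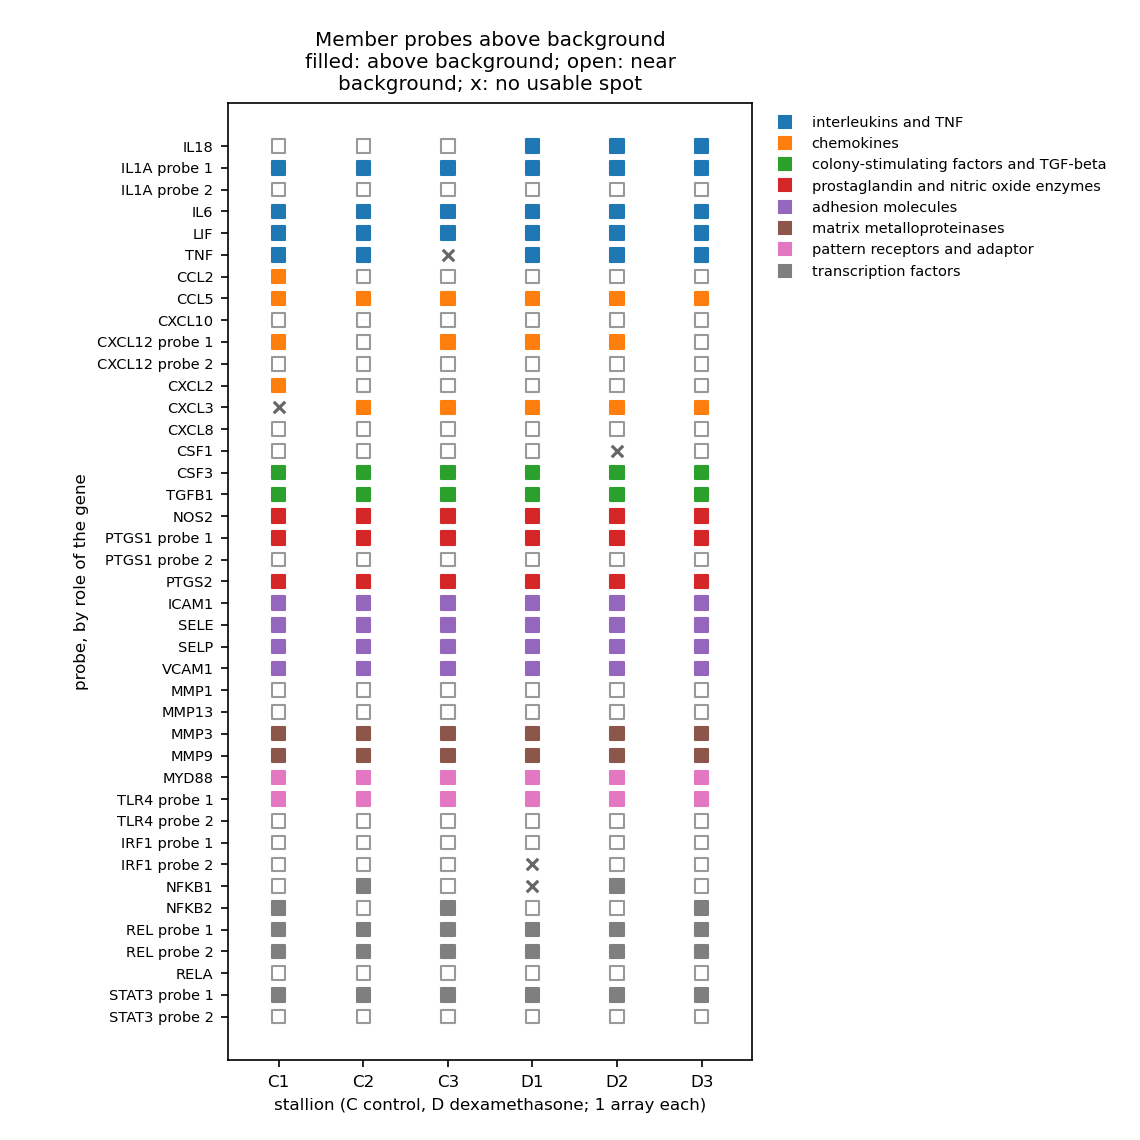
Each of the 41 probes (rows, ordered by the role of the gene) on the array of each stallion (columns, C control, D dexamethasone). Filled squares were above background, open squares near background, and crosses had no usable spot. IL18 is the member filled in the 3 dexamethasone columns and open in the 3 control columns.

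Members with a pair of probes show how much the reading depended on the probe. Of 7 such genes, 5 (IL1A, TLR4, PTGS1, STAT3 and CXCL12) had 1 probe above background on at least 3 arrays and another above background on none. The brighter IL1A probe averaged 8.79 in normalised log2 intensity over the 6 stallions and the dimmer averaged 5.90. For STAT3, which carries the signal of the IL-6 family, the means were 7.90 and 5.97. REL alone was read by both of its probes on all 6 arrays, and IRF1 by neither.

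For the comparison of treated with saline stallions, values are log2 intensities after background correction and quantile normalisation. A probe was tested where at least 3 arrays were above background and each group had at least 2 usable values, which 25 member probes of 24 genes passed. With limma and Benjamini-Hochberg adjustment over all 24590 tested probes, no member passed an adjusted p of 0.05, and the smallest adjusted p of a member was 0.999. Over all tested probes 1 passed (0.00407%). At an unadjusted p under 0.05 there were 2 member probes, IL18 and IL1A, both higher after dexamethasone, beside 3.29% of all tested probes. Groups did not overlap for the same 2 probes, 8% of those tested, beside 9.27% of all tested probes (4.2% higher and 5.07% lower after dexamethasone). IL18 entered the test only through the group in which it was higher, so neither count supports a shift of the members.

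In the main setting the members were divided between both directions much as the rest of the array. Of the 25 probes, 12 were higher and 13 lower after dexamethasone (52% lower, beside 52.5% of all tested probes). Their median log2 difference was -0.0044, beside -0.0068 over all tested probes. The median absolute difference was 0.04, beside 0.07. At this setting no member differed by 1.5-fold in either direction, and the largest difference was that of IL18, at 1.30-fold. IL18 passed 1.5-fold with the authors' values, with background subtraction and with an offset of 16, at log2 differences of 1.08, 1.06 and 0.64. With median scaling 22 of the 25 were lower (88%, beside 77.2% of all tested probes), with a median of -0.10 beside -0.08. With the authors' scaled intensities 22 were lower too (88%, beside 66.3% of all tested probes), with a median of -0.067 beside -0.065. At an unadjusted p under 0.05, 362 probes over the whole array were higher and 446 lower, against 111 and 1687 under median scaling and 218 and 620 with the authors' values.

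**Figure D2:**
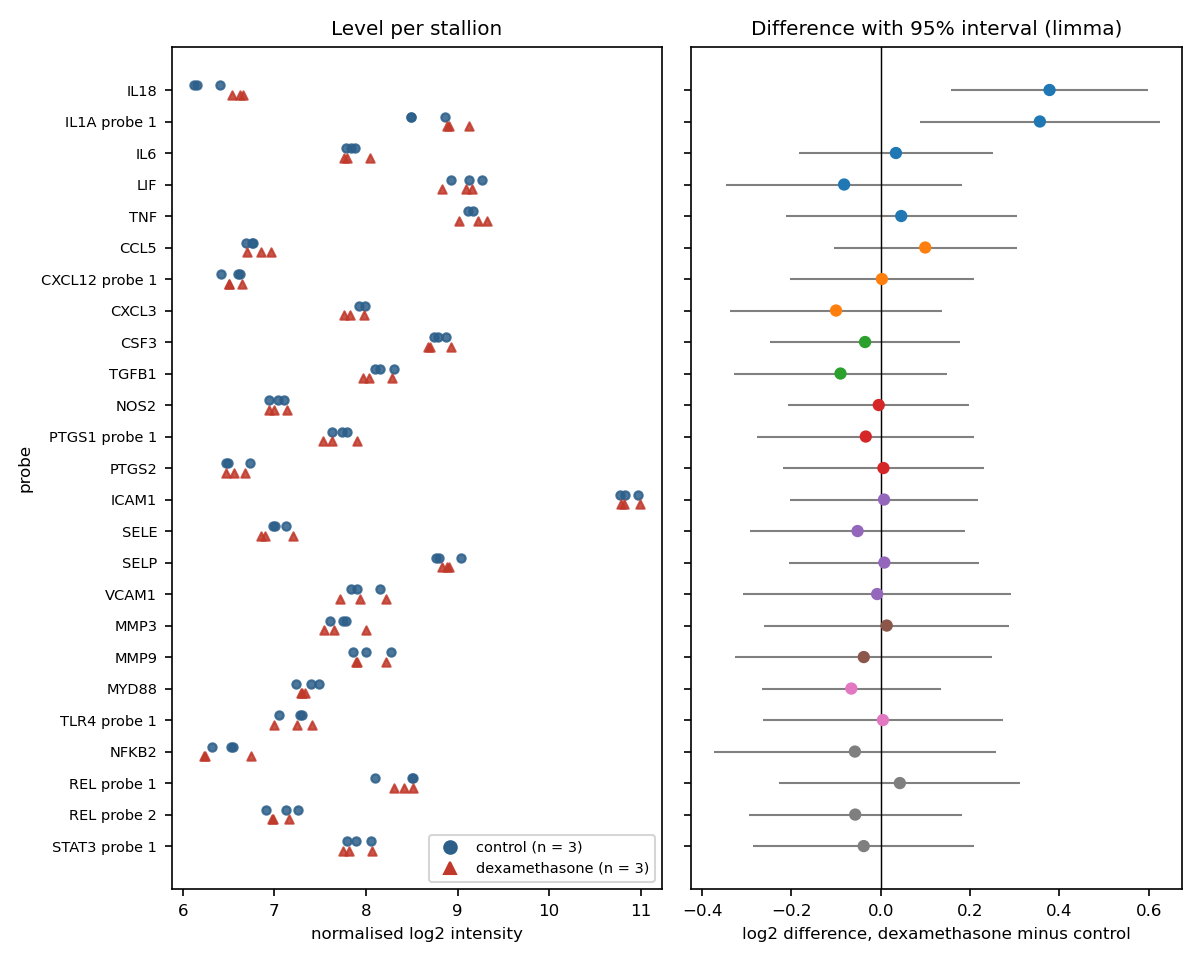
Left, the normalised log2 intensity of the 25 tested member probes in each stallion (circles control, triangles dexamethasone; n = 3 each, with 2 control values for TNF and CXCL3). Right, the log2 difference, dexamethasone minus control, with its 95% limma interval, where the intervals of IL18 and IL1A lie above 0 and the other 23 include 0.

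Among the cytokines, the tested probe of IL1A, a form of interleukin 1 whose precursor is already active, read higher after dexamethasone at an unadjusted p only. It read 8.49, 8.49 and 8.86 in the controls and 8.91, 8.89 and 9.12 in the treated stallions. Control replicate 3 came within reach of the treated values while the other controls lay well below, and the groups did not overlap. The log2 difference was 0.36 ± 0.12 (SE), at 8.97 ± 0.13 against 8.62 ± 0.21 (SD, n = 3 each), with a 95% interval from 0.09 to 0.62. Its unadjusted limma p was 0.0144 and its adjusted p 0.999. An exact two-sided permutation test of 3 against 3 cannot give a p below 0.1.

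The IL1A difference moved with the scaling. On the authors' scale the same spots read 11.9, 11.7 and 16.2 in the controls and 14.7, 15.2 and 20.0 after dexamethasone, so that control replicate 3 exceeded both lower treated stallions. The log2 difference was then 0.32 ± 0.18 (SE), and with median scaling it was 0.22 ± 0.12, with overlapping groups in both. Neither reached an unadjusted limma p of 0.05. It also missed that threshold without control replicate 1, without control replicate 2 and without dexamethasone replicate 3, at differences of 0.29, 0.30 and 0.28. Its limma adjusted p was at least 0.659 in each of the 17 alternatives. Within the 2 runs of slide numbers, both of which hold treated and control stallions, the difference was 0.40 and 0.26. It was 0.36 ± 0.08 (SE) with the run as a block. Groups without overlap in the main setting fix a positive sign in both runs.

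One of the 3 series of array control probes moved along with IL1A. That series of 30 repeated probes, recognised by the first letters and digits of the name, averaged 7.82, 8.45 and 8.97 in the controls and 8.71, 8.89 and 9.20 after dexamethasone. Their mean difference was 0.52, with groups that overlapped, while the other two series, of 32 probes each, differed by 0.09 and 0.01. Control replicate 3 was the highest control and dexamethasone replicate 3 the highest stallion for these 30 control probes, as for IL1A. Their part in the IL1A result was not tested.

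IL18, an inflammasome-processed cytokine that induces interferon gamma, was near background throughout. Its probe read 6.15, 6.41 and 6.12 in the controls and 6.53, 6.66 and 6.62 after dexamethasone. It was above background in 3 of 3 treated stallions and in 0 of 3 controls, and the groups did not overlap. The log2 difference was 0.38 ± 0.10 (SE), with means of 6.61 ± 0.07 after dexamethasone and 6.23 ± 0.16 in controls (SD, n = 3 each), an unadjusted limma p of 0.00351 and an adjusted p of 0.999. Setting each control no lower than the dimmest probe above background on its own array, IL18 was 1.22-fold higher after dexamethasone. That ratio of group means carries no error. It is not a lower bound, because a spot near background can read higher than that dimmest probe. Control replicate 2 did so, at 6.41 beside 6.22 to 6.31 for the dimmest probes over the 6 arrays.

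On the authors' scale the IL18 spots read 0.62, 1.19 and 0.65 in the controls and 1.51, 1.76 and 1.71 in the treated stallions. Each of the 3 treated values was above the highest control. The log2 difference was 1.08 ± 0.24 (SE) with these values and 1.06 ± 0.25 with plain background subtraction, since the offset of 50 used in the main setting compresses differences close to background. Within the runs of slide numbers the main-setting difference was 0.32 and 0.50, where groups without overlap fix a positive sign in both. The probe is not tested when all 6 arrays must be above background. Its unadjusted limma p was under 0.05 in each of the 16 alternatives that tested it, and its limma adjusted p at least 0.659. These alternatives reuse the arrays on which IL18 was picked by that p, so they add no independent support.

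**Figure D3:**
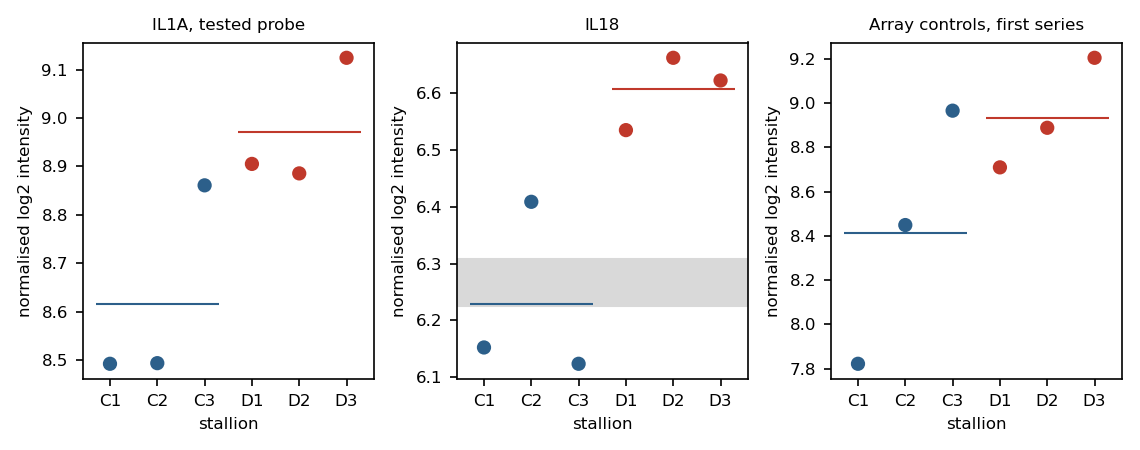
Normalised log2 intensity by stallion (C control, D dexamethasone; lines are group means of 3) of the tested IL1A probe, of IL18 and of the mean of 30 repeated array control probes. The grey band marks the range over the 6 arrays of the lowest value above background (6.22 to 6.31). All D points lie above all C points for IL1A and IL18, and C3 lies above D1 and D2 for the array controls.

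The other cytokines differed by less than the spread between stallions. TNF, the archetypal NF-kB activator, read 9.17 and 9.11 in the 2 controls with a usable spot and 9.02, 9.22 and 9.32 after dexamethasone. LIF, an IL-6 family cytokine, read 9.27, 9.12 and 8.93 in the controls and 9.16, 8.83 and 9.09 after dexamethasone. The treated values spanned the control values for TNF, and for LIF the groups overlapped over most of their range. The differences were 0.05 ± 0.11 for TNF and -0.08 ± 0.12 for LIF (SE). IL6, the inducer of the acute phase response, differed by 0.03 ± 0.10, at 7.87 ± 0.15 against 7.83 ± 0.05 (SD, n = 3 each).

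Of the chemokines, 3 of 7 were tested. CCL5, which attracts T cells and monocytes, read 6.75, 6.77 and 6.69 in the controls and 6.96, 6.70 and 6.85 in the treated stallions, a difference of 0.10 ± 0.09 (SE) with overlapping groups. CXCL3, a neutrophil attractant, differed by -0.10 ± 0.10 with 2 control values, 7.92 and 7.99. It had the lowest estimate of the 25 probes, and its groups overlapped here (treated values 7.83, 7.98 and 7.75). They did not overlap, with lower treated values, under median scaling and with the authors' values. The same held without dexamethasone replicate 2. It also held without control replicate 2, which left 1 control value, 7.99, beside a highest treated value of 7.98. Leaving out 1 stallion separated the groups of other members too. SELP, TNF and CCL5 were then higher, and MYD88, SELE, TGFB1, NFKB2, CSF3 and PTGS1 lower, each in 1 such setting. The shares of all tested probes without overlap at those settings are not given here. CXCL12, which retains CXCR4-bearing cells, differed by 0.00 ± 0.09 at 6.55 in both groups.

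CSF3, the granulocyte growth factor, read 8.75, 8.88 and 8.78 in the controls and 8.68, 8.70 and 8.93 after dexamethasone. Dexamethasone replicate 3 lay above all controls and the other treated stallions below them, and the difference was -0.04 ± 0.10 (SE). TGFB1, an anti-inflammatory growth factor, differed by -0.09 ± 0.11, at 8.09 ± 0.17 against 8.18 ± 0.11 (SD, n = 3 each).

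The endothelial adhesion molecules, which slow and hold leukocytes at the vessel wall, were all above background on 6 arrays and lay within 0.06 of the controls. ICAM1, a ligand of leukocyte integrins, read 10.83, 10.97 and 10.77 in the controls and 10.99, 10.78 and 10.81 after dexamethasone. SELP, the P-selectin stored in endothelial granules and platelets, read 8.79, 9.04 and 8.77 in the controls and 8.83, 8.88 and 8.91 after dexamethasone. In both genes the groups overlapped. The differences were 0.01 ± 0.09 for ICAM1, 0.01 ± 0.10 for SELP, -0.01 ± 0.13 for VCAM1 and -0.05 ± 0.11 for SELE (SE). The 95% interval of ICAM1 ran from -0.20 to 0.22.

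Among the inflammatory enzymes, PTGS1, the constitutive cyclooxygenase, read 7.74, 7.79 and 7.63 in the controls and 7.63, 7.53 and 7.90 after dexamethasone. Dexamethasone replicate 3 was the highest of the 6 stallions and dexamethasone replicate 2 the lowest. The difference was -0.03 ± 0.11 (SE), and it was -0.19 and 0.27 within the runs of slide numbers. PTGS2, the inducible cyclooxygenase and a textbook target of glucocorticoid repression, differed by 0.01 ± 0.10, at 6.57 ± 0.11 against 6.56 ± 0.14 (SD, n = 3 each). NOS2, the inducible nitric oxide synthase, differed by -0.00 ± 0.09, at 7.02 ± 0.10 against 7.03 ± 0.08. The 95% intervals ran from -0.22 to 0.23 for PTGS2 and from -0.21 to 0.20 for NOS2.

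MMP9, the gelatinase B of leukocytes, read 8.27, 8.00 and 7.85 in the controls and 8.22, 7.91 and 7.89 after dexamethasone, so that each group had 1 high stallion and a pair of lower ones. The difference was -0.04 ± 0.13 (SE). MMP3, stromelysin, differed by 0.01 ± 0.12, at 7.73 ± 0.24 against 7.72 ± 0.10 (SD, n = 3 each).

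MYD88, the adaptor of Toll-like and interleukin 1 receptors, read 7.48, 7.40 and 7.24 in the controls and 7.34, 7.29 and 7.30 after dexamethasone. The treated values lay inside the range of the controls, with a difference of -0.07 ± 0.09 (SE). TLR4, the endotoxin receptor, differed by 0.00 ± 0.12, at 7.22 ± 0.21 against 7.21 ± 0.14 (SD, n = 3 each).

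Of the transcription factors, REL, the c-Rel subunit of NF-kB, read 8.50, 8.10 and 8.51 in the controls and 8.41, 8.51 and 8.31 after dexamethasone with its brighter probe. Control replicate 2 was the lowest stallion and the groups overlapped, with a difference of 0.04 ± 0.12 (SE). The second REL probe differed by -0.06 ± 0.11, and the mean of both by -0.01 ± 0.09. NFKB2, the p100 subunit, differed by -0.06 ± 0.14, at 6.41 ± 0.30 against 6.46 ± 0.13 (SD, n = 3 each). Its probe cleared background in 1 of 3 treated and 2 of 3 control stallions. STAT3 differed by -0.04 ± 0.11.

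The intervals give the size of repression that these arrays could have missed. The lowest 95% bound of any tested member was -0.37, that of NFKB2, or 1.30-fold lower, and the bounds of all 25 probes excluded a 1.5-fold lower level on this scale. With the authors' values, with background subtraction and with a normexp offset of 16, 24 of 25 excluded it, and NFKB2 reached down to 2.06-fold, 2.10-fold and 1.53-fold lower. These intervals are on the array's scale and need not bound the change of the horse transcripts, and the 10 genes near background were not tested. The stallions were the only replicates. The limma intervals draw the variance of each probe toward that of all tested probes, so they do not measure its own spread between animals alone. For NFKB2, with SDs of 0.30 after dexamethasone and 0.13 in controls, its own values alone would give a wider interval and a bound below -0.37. In whole tissue, fewer cells of a type and less RNA per cell cannot be told apart.

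No stallion was high or low for most of the members. The median SD of a member over the 6 animals was 0.13, beside 0.12 over all tested probes. The median deviation of the members from their own means was -0.011, 0.029 and -0.006 in the controls. After dexamethasone it was -0.037, -0.034 and -0.022, so each treated stallion lay slightly below each control. The same median over all probes was 0.004, 0.006 and 0.004 against 0.002, -0.015 and 0.007, with overlapping groups. This order of the members' medians was not tested. Dexamethasone replicate 3 was the highest stallion for 7 of the 25 probes, and control replicate 3 and dexamethasone replicate 2 were each the lowest for 6. The first run of slide numbers held 2 treated and 2 control stallions and the second 1 of each. Of 24 probes with values in both runs, 8 kept the same sign. The share over all tested probes is not given here. IL1A and IL18 were among the 8, which groups that do not overlap fix in advance. The members' median difference was -0.02 in the first run and 0.03 in the second.

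**Figure D4:**
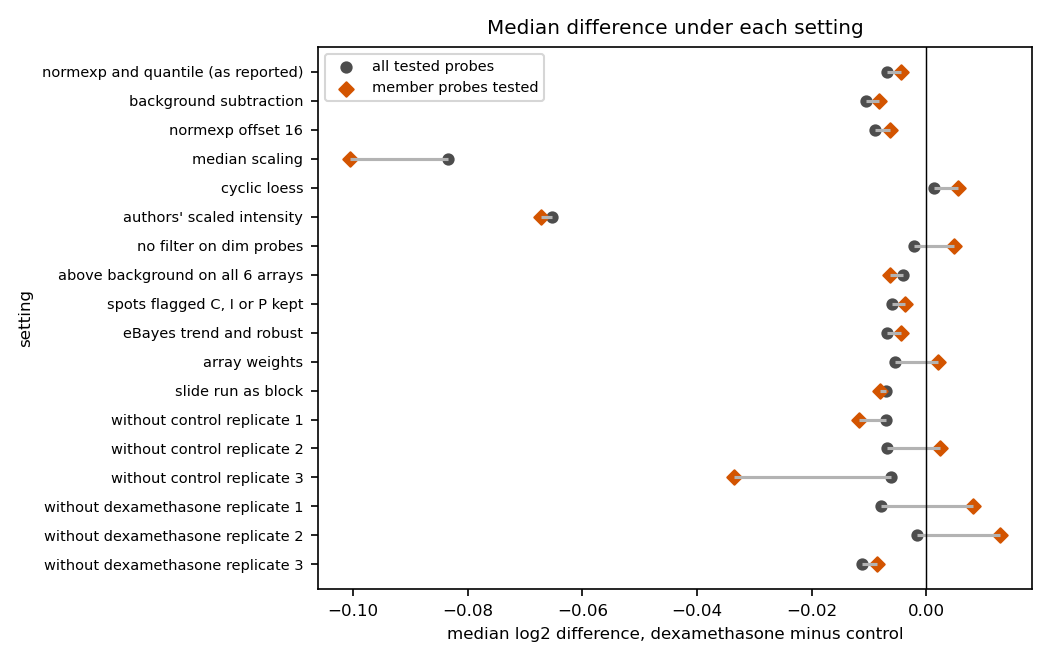
Median log2 difference, dexamethasone minus control, over the tested member probes (diamonds) and over all tested probes (circles) under each setting. Median scaling (-0.10 and -0.08) and the authors' scaled intensity (-0.067 and -0.065) move both medians to lower values together.

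The wider pathway was read with a list of 117 genes of receptors, transducers, inhibitors, stress kinases, prostaglandin enzymes and glucocorticoid targets, of which 59 were tested by 67 probes. Of these, 34 were higher and 33 lower, with a median of 0.00, and none passed the adjusted p. The IkB alpha gene NFKBIA, the NF-kB partner RELB, the kinases CHUK, IKBKB and IKBKG, and the receptor IL6R were above background on 0 arrays. The IL1R1 probe had no usable spot on any array. At an unadjusted p under 0.05 there was 1 higher probe and 1 lower probe, beside 1.47% and 1.81% of all tested probes.

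The higher one was a probe of TRAF3IP2, the adaptor of the interleukin 17 receptor, which read 6.88, 6.96 and 7.01 in the controls and 7.14, 7.33 and 7.30 after dexamethasone. It differed by 0.31 ± 0.09 (SE), a second TRAF3IP2 probe differed by -0.06 ± 0.13, and the third was above background on 0 arrays. The lower one was a probe of JUNB, an AP-1 subunit, which read 7.55, 7.57 and 7.52 in the controls and 7.11, 7.43 and 7.30 after dexamethasone. It differed by -0.27 ± 0.10 (SE) and by -0.19 and -0.26 without dexamethasone replicate 1 and control replicate 2, past the unadjusted limma threshold in neither. The second JUNB probe differed by 0.11 ± 0.16. Both probes had a limma adjusted p of 0.999. For each gene, then, 1 tested probe had groups that did not overlap and the other tested probe had groups that did.

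By group, 6 of 11 probes of cytokine and chemokine receptors were higher, with a median of 0.03, among them IL6ST, the shared receptor of IL6 and LIF, at 0.31 ± 0.28 (SE) with overlapping groups. Transducers to NF-kB were higher for 4 of 12 probes with a median of -0.02, and inhibitors and partners for 3 of 7, also with -0.02. Of the JAK-STAT and IRF probes 8 of 10 were higher, with a median of 0.03. Stress kinase and AP-1 probes were lower for 6 of 9, with a median of -0.13 beside -0.0068 over all tested probes. Groups did not overlap for 3 of them, probes of JUNB, FOSB and ATF2, all lower, beside 5.07% of all tested probes that were lower without overlap. These were the only such probes among the 67 of the pathway list, of which 3 others were higher without overlap. Over the whole list both counts were thus near the shares of all tested probes, so they show no shift of the list. Probes listed as anti-inflammatory glucocorticoid targets were higher for 3 of 7, with a median of -0.04. The lowest of them was the glucocorticoid receptor gene NR3C1 itself, at -0.16 ± 0.19 (SE), and the listed FKBP5 and ZFP36 were above background on 0 arrays. Prostaglandin and leukotriene genes were higher for 4 of 8 probes with -0.01, and metalloproteinase inhibitors for 3 of 4 with 0.07. The receptors CXCR2, at 0.14 ± 0.09, and TGFBR2, at 0.10 ± 0.08, also had groups that did not overlap, both higher, beside 4.2% of all tested probes. The pathway probe farthest from 0 was one for PTGDS, the lipocalin-type prostaglandin D synthase, which read 13.28, 13.52 and 13.45 in the controls and 12.23, 12.97 and 13.44 after dexamethasone. It differed by -0.54 ± 0.24 with overlapping groups, by -0.80 and -0.01 within the runs of slide numbers, and a second PTGDS probe differed by -0.06 ± 0.09. IL6ST, CXCR2, TGFBR2, PTGDS, FOSB and ATF2 are named here after their values were seen.

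Several defining markers of leukocytes and endothelium were not read. Of 12 macrophage markers 4 were tested, while CD14, CD163 and CSF1R were above background on 0 arrays, and the summed log2 level of those tested was 9.37 to 9.49 in controls and 9.42 to 9.55 after dexamethasone. Of 11 lymphocyte markers 8 were tested, with 11.37 to 11.41 against 11.23 to 11.45. Of 11 neutrophil and mast cell markers 3 were tested, CSF3R, S100A12 and KIT, with 9.26 to 9.39 against 9.28 to 9.39. Their mean log2 levels were 6.61, 6.26 and 8.86, so the sum mostly follows KIT and is no reading of neutrophils. MPO and CPA3 were above background on 0 arrays, and TPSAB1 and MS4A2 had no probe of their own. KIT alone thus stood for mast cells, and whether its signal came from mast cells was not examined. S100A12, a neutrophil protein, was above background in 3 of 3 controls and 0 of 3 treated stallions, and its dim probe, tested only through its control arrays, differed by -0.51 ± 0.14 (SE) with a limma adjusted p of 0.999. Endothelial markers, 6 of 9 tested, ran from 11.05 to 11.15 against 10.93 to 11.09. All 7 tested endothelial probes were lower after dexamethasone, with differences from -0.16 to -0.03, a median of -0.08, and overlapping groups for each. The part of endothelial markers in the adhesion molecule values was not tested.

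Of the tissue's own markers, 6 of 8 Leydig, 9 of 11 Sertoli and 5 of 10 germ cell genes were tested. The germ cell genes DDX4, TNP1 and PRM2 and the Sertoli gene SOX9 were above background on 0 arrays. Summed levels did not overlap for Leydig cells (12.77 to 13.00 in controls, 12.54 to 12.72 after dexamethasone). For germ cells they were barely apart (11.382 to 11.409 against 11.342 to 11.377). Of the 5 tested germ cell probes 2 were higher and 3 lower, each with overlapping groups. Summed levels overlapped for Sertoli cells (11.74 to 11.88 against 11.65 to 11.85). Of the 11 tested Sertoli probes 5 were higher and 6 lower. A CLDN11 probe, outside the sum for an unusable control spot, differed by 0.48 ± 0.13 (SE) without overlap, at a limma adjusted p of 0.999. The second CLDN11 probe differed by 0.04 ± 0.12. A GATA4 probe with 4 usable values was lower without overlap, at -0.15 ± 0.11. Over all tested probes 4.2% were higher and 5.07% lower without overlap. Among the 9 tested Leydig probes, the 2 of INSL3, a Leydig cell peptide hormone, stood lowest, at -1.21 ± 0.23 and -0.52 ± 0.22 (SE), both with a limma adjusted p of 0.999. Of the other Leydig probes 4 were higher and 3 lower, from -0.17 for HSD3B2 to 0.19 for a STAR probe. The Leydig sum held both INSL3 probes beside those of LHCGR and STAR, and a sum without INSL3 is not given. LHCGR, the brightest at a mean of 12.24, differed by -0.08 ± 0.09 (SE) with overlapping groups. Only 1 of the 9 tested Leydig probes had groups without overlap, a probe of INSL3. The part of these markers in the IL1A and IL18 values was not tested.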

How the data were processed

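Total RNA of minced testis was labelled as cRNA with Alexa-647, per the labels. The deposited files give, as intensity on a linear scale, the spot mean, the median local background, their difference and a scaled form of it, and a signal strength score that equals spot mean over noise level. The authors' scaled intensities were, from the values, the difference divided by 1 constant per array. The authors' value table held the same numbers. Per array, the spots' median intensity lay between 72.6 and 79.4 and their median background between 47 and 50.

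Spots flagged M (353 to 610 per array) had no value and those flagged C, I or P (320 to 1189) were set to missing. The scanner software and the meaning of its flag letters: not given in the sources used here. Spot means were corrected with normexp (offset 50), 94 repeated control probes and 631 blank spots were removed, and log2 values were quantile normalised. limma 3.58.1 (R 4.3.3) fitted dexamethasone against control over all tested probes, two-sided, with Benjamini-Hochberg adjustment, and was tested on simulated data. Alternatives covered background correction, normalisation, the authors' values, the filter, flagged spots, eBayes settings, array weights, the slide run as a block and leaving out each stallion. Figures used matplotlib 3.10.9 in Python 3.11.15. The number of arrays limits the precision. Replicate numbers follow sample order and pair no stallions.

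The members, the lists and the rule for genes given in full were chosen with earlier results of these data known. That rule took members with an unadjusted p under 0.05 or groups that do not overlap, the 5 with the brightest probes, and 1 member of each role, and pathway genes with an unadjusted p under 0.05. Other genes are named by their role. Marker levels were summed as linear intensities over tested probes with 6 usable values, then taken to log2. Runs were read from gaps in the slide numbers. Of the 34 member symbols, 33 (all but CXCL3) are in the horse RefSeq gene table. Probe levels are not compared between genes, because the match of each human probe to its horse transcript was not examined.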

Additional observations from a re-analysis of the deposited data

How the results depend on the processing

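Over the whole array, 1 probe passed the adjusted p. Background subtraction, eBayes with trend and robust settings, and a filter requiring all 6 arrays above background each gave 0, and leaving out single stallions gave 0 to 3. Those past an unadjusted p of 0.05 numbered 808, and 1798 under median scaling and 2073 with no filter, which raises the member probes tested from 25 to 41. Members past that p numbered 2, and 1 under median scaling, with the authors' values (IL1A lost in both) and with all 6 arrays required (IL18 not tested), and 1 to 2 without each stallion in turn. The members' median of -0.0044 was -0.10 under median scaling and -0.067 with the authors' values, and ran from -0.034 (without control replicate 3) to 0.013 (without dexamethasone replicate 2). Of 420 values of member probes under the 17 alternatives 64 changed sign, none with an unadjusted limma p under 0.05. No member passed the adjusted p in any. None of the 64 was of IL1A or IL18, whose groups did not overlap, so leaving out a stallion could not change their sign. Dim probes near background limit what can be read for the 10 untested genes.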
